A study of Sus scrofa with 23 samples.

Results

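Articular cartilage from the medial humeral condyle, the elbow end of the upper foreleg bone, was compared between pigs affected by osteochondrosis and non-affected pigs. The members were chosen by the tissue and disease status given in the labels: 14 of the 23 arrays of the series carry humeral cartilage, 8 from affected and 6 from non-affected animals. Arrays affected 5 and affected 6 were nearly identical and were averaged into 1 sample, called affected 5/6 here, which leaves 13 of the 21 samples of the whole series, 7 affected and 6 non-affected. All animals came from a Duroc x Pietrain crossbreed, and the study used affected and non-affected sib-pairs. No drug, diet or engineered allele is named in the labels, and they give no age, sex, lesion grade or link between a sample and its sib. Nothing in the labels says that the samples of a group are separate animals, so a p-value covers the spread among these samples alone, which may be technical. The other joint of the study, the femoral condyle, has 4 affected and 5 non-affected arrays, of which non-affected 1 and 2 were also close and were averaged, which leaves 4 samples a group. It is used here only for values set beside the humeral ones.

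In osteochondrosis the orderly replacement of deep joint cartilage by bone is disturbed during growth, and areas of cartilage remain. Articular cartilage is built by chondrocytes, which secrete type II collagen and the large proteoglycan aggrecan, live without vessels of their own in mature tissue, and draw most of their energy from glycolysis. In young animals the deep part of the joint cartilage acts as a growth cartilage: its chondrocytes enlarge, the matrix mineralises, and vessels, osteoclasts and marrow cells invade from the bone below. A piece of tissue from this surface can therefore hold cartilage, growth cartilage, bone and marrow in varying amounts. In bulk RNA of this kind, fewer cells of a type and less RNA per cell cannot be told apart.

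Transcripts were measured on the Affymetrix Porcine Genome Array, on which a probe set is a group of short oligonucleotides that reads 1 transcript. Values are on a log2 scale, so a difference of 1 is a doubling, and the table has a floor at 4 (16 on the linear scale). Humeral array medians lay between 6.17 and 6.32, and 1.69% to 2.83% of the probe sets of an array lay at the floor. Of 23999 probe sets other than controls, 10069 carry exactly 1 gene symbol, which gives 6765 genes.

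The samples carried cartilage markers at high levels, and markers of bone, marrow, vessel and muscle at levels that varied strongly from sample to sample. The mean log2 level of 6 measured chondrocyte markers lay between 11.60 and 12.10 in the non-affected group and between 11.12 and 11.97 in the affected group, and COMP and ACAN, 2 abundant matrix genes of cartilage, had medians of 13.71 and 13.72 over the 13 samples. Neutrophil markers ranged from 4.76 to 11.6 in the non-affected group, with a median of 5.70, and from 5.36 to 10.84 in the affected group, with a median of 9.18. Osteoclast markers ranged from 6.40 to 10.25 (median 7.93) in the non-affected and from 7.28 to 10.28 (median 9.29) in the affected samples. All 5 measured neutrophil and all 5 osteoclast markers averaged higher in the affected group. So did 7 of 7 macrophage, 5 of 5 endothelial, 5 of 5 osteoblast and 5 of 5 T, B and NK cell markers. The count was 4 of 5 for muscle, 4 of 5 for fibroblast, 2 of 3 for adipocyte, 2 of 3 for nerve and 1 of 2 for erythroid markers. Of the 6 chondrocyte markers, each by its brightest probe set, 0 averaged higher. Non-affected 2 carried the highest neutrophil level of its group, non-affected 5 was the lowest of its group in 21 of 43 gene lists, and affected 8 carried muscle transcripts such as CKM, muscle creatine kinase, at 10.31. None of the measured markers was at the floor in all samples. The part of these cells in the differences below was not tested. List medians, and counts of list members at an unadjusted p under 0.05, shifted when single samples were left out, and the larger shifts are given beside the lists described.

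The comparison asked which transcripts differ between affected and non-affected humeral cartilage. No probe set passed the adjusted threshold: limma called 0 of 23999 (0.0%), with a smallest adjusted p of 0.753 over all probe sets. At an unadjusted p under 0.05 there were 1558 probe sets (6.49%), of which 629 lay higher (2.62%) and 929 lower (3.87%) in affected cartilage. Leaving out affected 2 gave 1016 such probe sets and leaving out non-affected 2 gave 2414, with 0 called in both cases. There were 2050 without affected 7, 1877 without affected 8 and 1152 without non-affected 5. Counts of list members with a sample left out, given below, are to be read beside these totals. Differences were small for most transcripts: 95% of probe sets had an absolute difference of 0.44 or less, and 121 (0.504%) reached 1 log2 unit, 97 of them higher (0.404%) and 24 lower (0.1%) in affected samples. The groups did not overlap for 42 probe sets (0.175%), 14 higher (0.0583%) and 28 lower (0.117%) in affected cartilage. With each array centred on the same median the split was 5 higher and 31 lower. Leaving out single samples gave 17 to 47 higher and 32 to 68 lower, both most without non-affected 2. By the brightest probe set of each gene, 3 genes lay higher without overlap (0.0443%) and 13 lower (0.192%). Only 3 of the 14 and 16 of the 28 carry a gene symbol, and the 6 probe sets with the smallest p among those 42 have none. Because nothing passed the adjusted threshold, the values that follow are descriptions of these 13 samples, errors after ± are standard errors of the limma fit, and the adjusted p of every gene named is 0.753 or above.

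**Figure D1:**
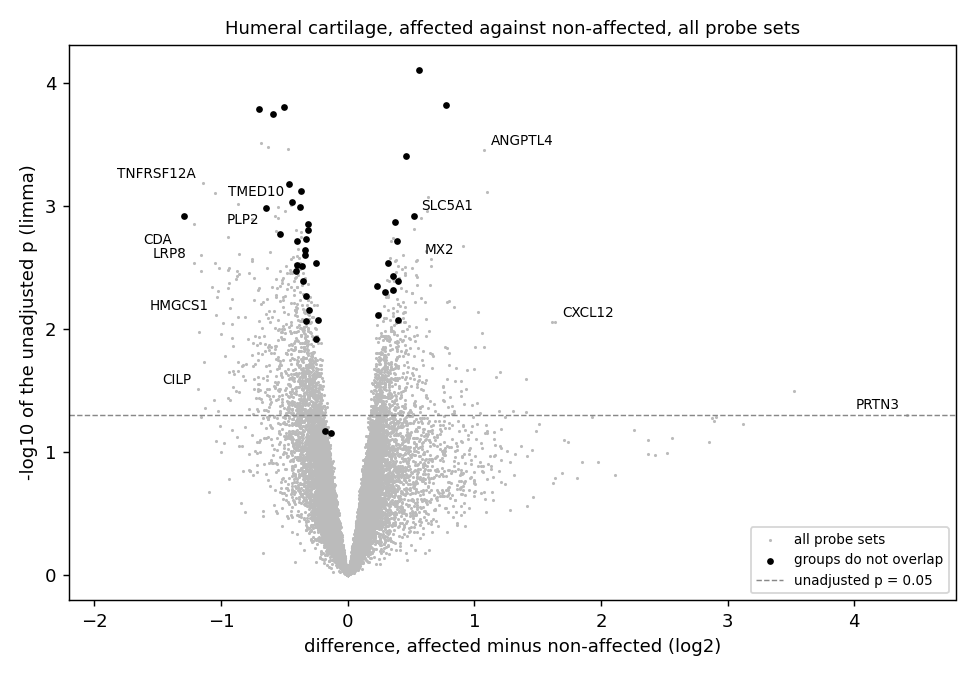
Difference between affected and non-affected humeral cartilage (x axis, log2) against the -log10 of the unadjusted limma p (y axis) for each of 23999 probe sets, with 12 named genes. Black points are the 42 probe sets whose groups do not overlap, and the dashed line marks an unadjusted p of 0.05; the largest differences, such as PRTN3, lie close to that line.

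The named transcripts that separated the groups on the low side had varied roles. TMED10, a cargo receptor that cycles between the endoplasmic reticulum and the Golgi, had a lowest, median and highest value of 9.62, 9.73 and 9.84 in the non-affected and 8.89, 9.40 and 9.57 in the affected samples. The highest affected sample, affected 8, lay just under the lowest non-affected one, and the spread was wider in the affected group. Its difference was -0.44 ± 0.11 (SE; 95% interval -0.67 to -0.21), or 0.736 of the non-affected level. The other TMED10 probe set, which is brighter, differed by -0.25.

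PLP2, a small membrane protein of the endoplasmic reticulum, ran from 10.90 through a median of 11.11 to 11.29 in the non-affected and from 9.91 through 10.55 to 10.83 in the affected samples, a difference of -0.65 ± 0.16. Affected 2 and affected 4 were the lowest. CD151, a tetraspanin that binds laminin-type integrins, was tightly grouped in non-affected cartilage at 11.16, 11.28 and 11.33, and lay at 10.78, 10.95 and 11.15 in affected cartilage (difference -0.31 ± 0.08). RAB22A, a small GTPase of endosomes, had 8.29, 8.40 and 8.48 against 7.89, 8.13 and 8.23. WSB2, a substrate adaptor of a ubiquitin ligase, ran from 9.88 to 10.53 against 9.29 to 9.87. In each of these genes all 7 affected samples lay below all 6 non-affected samples, and the distance between the closest samples of the groups was small beside the range within a group.

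The same separation held for NECTIN2, a cell adhesion protein (6.11, 6.36 and 6.55 against 5.56, 5.96 and 6.09), and for TTC39C (5.92, 6.02 and 6.53 against 5.40, 5.68 and 5.73), whose other probe set differed by -0.08. CD86, a costimulatory ligand of antigen-presenting cells, differed by -0.25 ± 0.07, from 7.10 to 7.28 in non-affected and from 6.85 to 7.04 in affected samples. It lay lower although 19 of the 21 macrophage genes measured lay higher. CDK2, a kinase of the cell cycle, differed by -0.30, but its other probe sets gave 0.25 and 0.04, so that the sign depends on the probe set.

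On the high side SLC5A1 separated the groups. It encodes SGLT1, which carries glucose into cells together with sodium. It ran from 5.85 through a median of 6.18 to 6.36 in the non-affected and from 6.36 through 6.68 to 7.23 in the affected samples, a difference of 0.52 ± 0.13 (95% interval 0.24 to 0.80). Affected 2 stood above the other affected samples, and affected 5/6 only just cleared the highest non-affected one. The other named genes with no overlap on this side were NRDE2 and RETSAT, the latter a retinol saturase.

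**Figure D2:**
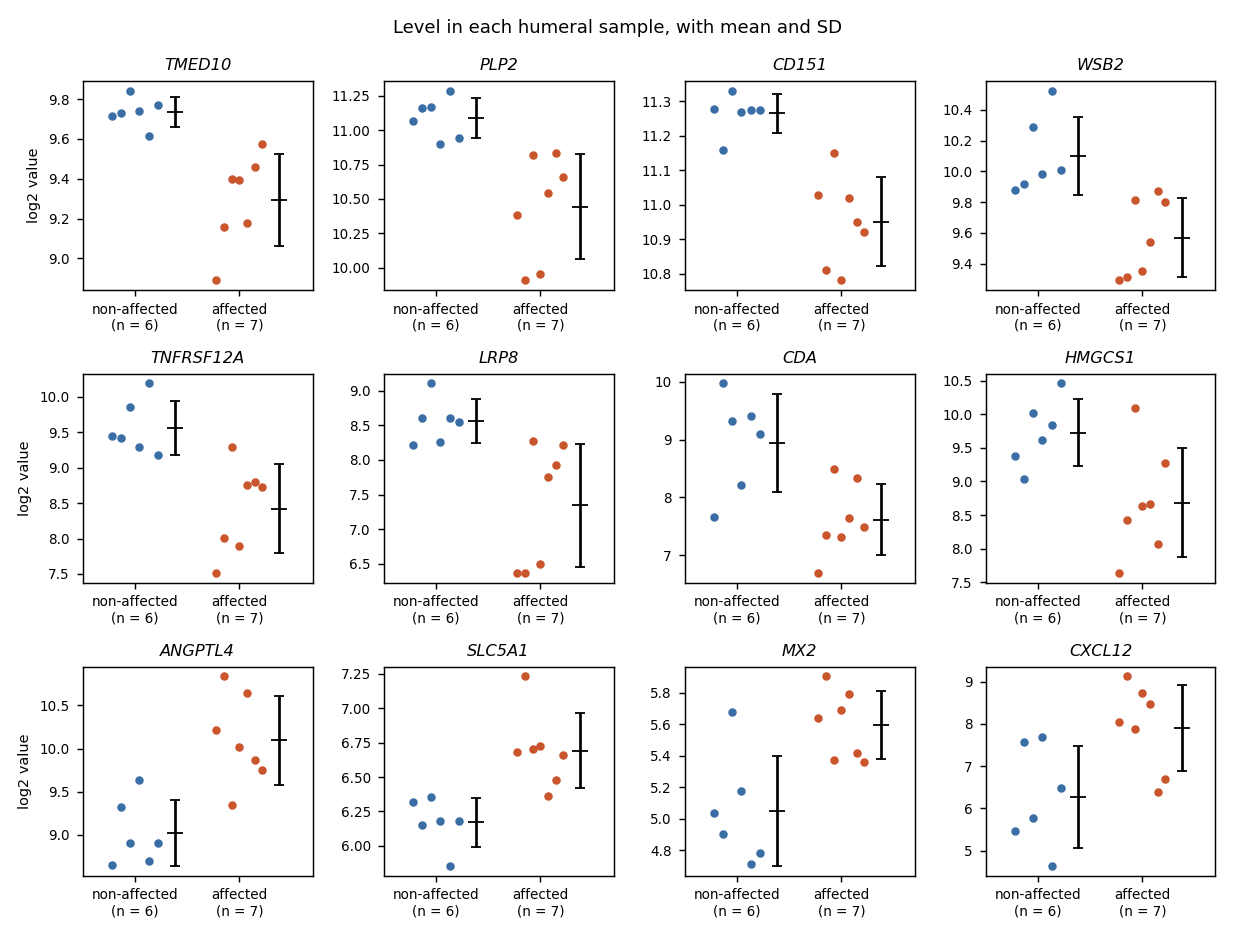
Log2 value of 12 named genes in each humeral sample (points; blue, 6 non-affected, and orange, 7 affected), with the group mean and SD beside them; each panel has its own axis, which does not start at 0. TMED10, PLP2, CD151, WSB2 and SLC5A1 do not overlap between the groups, and TNFRSF12A, LRP8, CDA, HMGCS1, ANGPTL4, MX2 and CXCL12 do.

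ANGPTL4 had the smallest p of the genes with a symbol that lay higher in affected cartilage. The secreted protein blocks lipoprotein lipase, and the gene is known to be induced by fatty acids and by low oxygen. Its values were 8.65, 8.91 and 9.64 (lowest, median and highest) in the non-affected and 9.34, 10.01 and 10.83 in the affected samples. Affected 3 lay inside the non-affected range and the other 6 affected samples lay above it. The difference was 1.07 ± 0.23 (95% interval 0.58 to 1.57), or 2.1 times the non-affected level, and the second probe set gave 0.91. PDK4, a kinase that slows the entry of pyruvate into the mitochondrial cycle and is, like ANGPTL4, a well-known target of fatty acid receptors, lay at 6.31, 6.71 and 7.94 against 6.76, 7.99 and 9.41 (1.07 ± 0.38), with a second probe set at 1.0. The groups overlapped for PDK4, with affected 4 and affected 8 highest. UCP3, a mitochondrial carrier linked to fatty acid use, differed by 0.66, but 2 samples were at the floor and its other probe set gave 0.14.

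MYLIP, a ubiquitin ligase that marks the LDL receptor for breakdown, ran from 9.06 through 9.81 to 10.32 in non-affected and from 9.93 through 10.46 to 10.81 in affected cartilage (0.65 ± 0.20). LRP8, a lipoprotein receptor that MYLIP also targets, lay on the other side: 8.22, 8.57 and 9.11 against 6.36, 7.76 and 8.27, a difference of -1.21 ± 0.34. Affected 1, affected 2 and affected 4 lay between 6.36 and 6.5 in LRP8, and the other 4 affected samples lay closer to the non-affected range. MAG, a glycoprotein of myelin, differed by 0.44 ± 0.12 at low levels, and TAP1, a peptide transporter of antigen presentation, by 0.54 with other probe sets at -0.15 and 0.27.

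Among the genes lower in affected cartilage, TNFRSF12A and CDA had large differences. TNFRSF12A, the receptor for the cytokine TWEAK, had 9.18, 9.44 and 10.19 in the non-affected and 7.51, 8.72 and 9.29 in the affected samples. Affected 3 was the only affected sample above the lowest non-affected one. The difference was -1.14 ± 0.27 (95% interval -1.71 to -0.58), or 0.453 of the non-affected level, and the other probe set gave -1.16. Of the 26 genes in the TWEAK and NF-kappaB list 9 were measured, and those other than TNFRSF12A had small differences. TRAF6, an adaptor of the pathway, differed by -0.08. NFKB1 differed by 0.16 with 4 samples at the floor, and TRAF5 had 2 there, so their differences say little.

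CDA, cytidine deaminase of the pyrimidine salvage pathway, ran from 7.67 through 9.21 to 9.97 in non-affected and from 6.68 through 7.48 to 8.49 in affected cartilage, a difference of -1.33 ± 0.36. Non-affected 1 and non-affected 4 lay within the affected range. CD93, a receptor found on endothelial and myeloid cells, differed by -0.94 ± 0.27, although its second probe set gave 0.00. EXOSC7, a subunit of the RNA exosome, differed by -0.55 with 7.21, 7.63 and 7.79 against 6.63, 7.0 and 7.42, while its other, brighter probe set differed by -0.20. HSPB1, a small heat shock protein that is abundant in chondrocytes, lay at 12.08, 12.31 and 12.42 against 10.47, 11.75 and 12.12 (-0.86 ± 0.24). Only affected 8 reached the non-affected range in HSPB1.

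Larger differences on the high side, among genes with an unadjusted p under 0.05, were those of CXCL12, DPT and C3. CXCL12, a chemokine made by stromal cells of marrow and vessel, had 4.63, 6.13 and 7.69 in the non-affected and 6.39, 8.04 and 9.13 in the affected samples (1.63 ± 0.54), with 1.41 for its brighter probe set. C3, the central complement protein, had 5.65, 7.53 and 8.14 against 7.21, 8.75 and 9.99 (1.20 ± 0.47). DPT, dermatopontin of fibrous tissue, had 5.76, 8.35 and 9.82 against 7.65, 9.43 and 10.57 (1.41 ± 0.57). In all of these non-affected 5 was the lowest sample, as it was for the means of the vessel and macrophage lists.

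PRTN3, a protease of neutrophil granules, showed the largest difference of the genes named, 4.42 ± 2.06 (95% interval 0.01 to 8.82, adjusted p = 0.761). Its values formed a high and a low set that cut across the groups. Non-affected 2 lay at 17.5 and affected 1, 3, 4, 5/6 and 8 between 14.03 and 16.95. The other 5 non-affected samples, with affected 2 and 7, lay between 6.78 and 7.53. The high values are at the top of the scale: 17.5 was the highest value of its array, and humeral arrays had 0 to 2 probe sets over 15. CCK, the gene of the peptide cholecystokinin, was high only in affected 1, affected 4 and affected 5/6, at 9.64, 8.98 and 9.61, and lay between 6.11 and 6.59 in the other 10 samples (adjusted p = 0.761).

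Genes of cholesterol synthesis and uptake lay lower in affected cartilage nearly throughout. Of 15 measured members, 14 lay lower, with a median difference of -0.64, and 10 had an unadjusted p under 0.05 on that side. Over the 6765 genes the median was 0.001, 50.1% lay higher, and 6.39% had such a p, 2.47% higher and 3.92% lower. None passed the adjusted threshold. The pathway builds cholesterol from acetyl-CoA, and in most cells its enzymes are controlled together by the transcription factor SREBP2.

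The early enzyme HMGCS1, which makes HMG-CoA, lay at 9.04, 9.73 and 10.46 in the non-affected and 7.63, 8.64 and 10.10 in the affected samples (-1.04 ± 0.34). SQLE, squalene epoxidase, lay at 9.5, 9.78 and 10.15 against 8.20, 8.95 and 9.95 (-0.94 ± 0.27). In both genes affected 3 lay above the non-affected mean, at 10.10 and 9.95, and the other 6 affected samples lay below it. Further along the pathway, FDPS differed by -0.55, FDFT1 (squalene synthase) by -0.67, CYP51 (lanosterol demethylase) by -0.93, MSMO1 by -0.87, NSDHL by -0.52 and SC5D by -0.83. INSIG1, which holds the SREBP complex back in the endoplasmic reticulum and is itself a target of it, differed by -0.69. Other probe sets gave -0.22 for INSIG1 and -0.24 and -0.44 for MSMO1. The regulator SREBF2 differed by -0.33, with a p above 0.05, but its other probe sets gave 0.13, -0.12 and -0.11. The late enzyme TM7SF2 differed by -0.04. ABCA1, which exports cholesterol from cells, was the only member on the high side, at 0.76 ± 0.36.

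As a mean over the list, the non-affected samples lay between 8.89 and 9.29 and the affected samples between 8.10 and 9.22. Affected 3, at 9.22, lay inside the non-affected range, affected 8, at 8.89, lay at its lower edge, and the other 5 affected samples lay below it. In this mean non-affected 2 lay at 9.05 and non-affected 5 at 9.19. Affected 1 and affected 7 were the lowest of the affected samples, at 8.10 and 8.17. The part of bone and marrow cells in the cholesterol difference was not tested. The median difference ran from -0.80 without affected 3 to -0.51 without affected 7. With non-affected 2, non-affected 5 and affected 8 left out together, a setting added after the data were seen, 12 of 15 members lay lower and 8 had a p under 0.05 on that side.

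**Figure D3:**
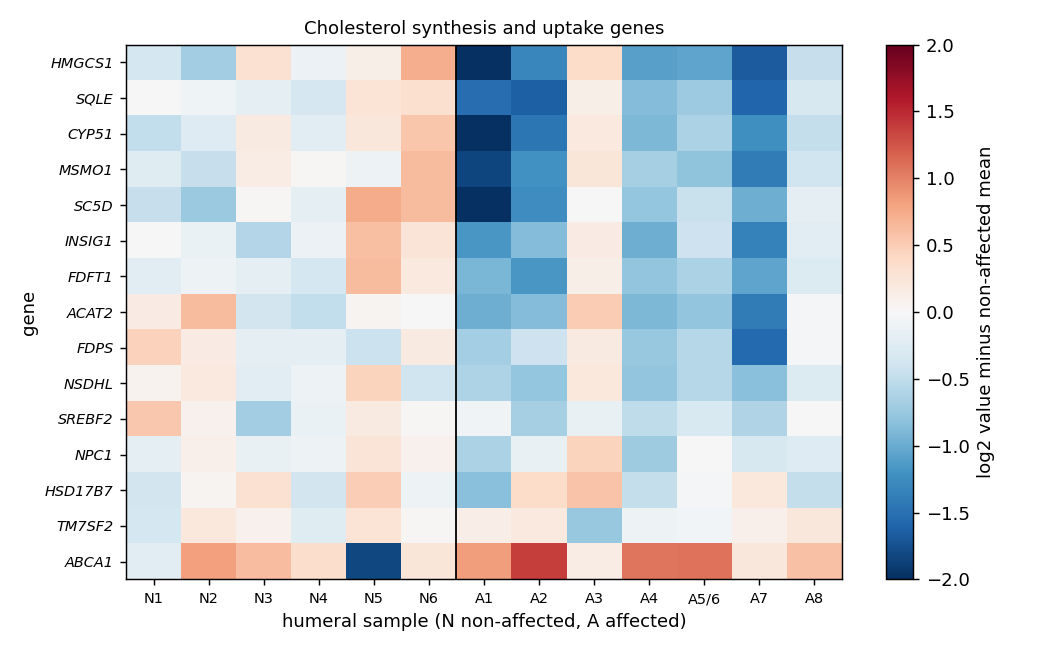
Log2 value of 15 cholesterol genes (rows) in each humeral sample (columns; N non-affected, A affected) minus the non-affected mean of the gene, with blue below and red above it; colours are capped at 2 log2 units. Affected 1, 2, 4, 5/6 and 7 are blue for most genes, affected 3 is near or above 0, and ABCA1 runs the other way.

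Genes of fatty acid synthesis lay lower as well, 13 of 17. Their median of -0.12 became -0.20 without affected 3 and -0.09 without non-affected 4. ME1, malic enzyme, which supplies NADPH, differed by -0.79 ± 0.28, SCD, the desaturase that makes oleic acid, by -0.80 ± 0.30, and FADS1 by -0.34. SERPINA1, a protease inhibitor with high levels in these samples, lay at 12.15, 12.71 and 13.52 against 9.68, 11.89 and 13.16 (-1.13 ± 0.43). LOXL4, a collagen cross-linking enzyme, lay at 10.82, 11.29 and 12.20 against 9.98, 10.13 and 11.61 (-0.94 ± 0.28), while its other probe sets gave 0.14 and -0.03.

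Cartilage matrix genes lay slightly lower in affected samples. Of 8 measured members 7 lay lower, with a median of -0.17 that became -0.30 without affected 7 and -0.13 without affected 2. At a p under 0.05 were 3 of them, 0 without non-affected 5 or non-affected 6, and 1 without affected 1, 2 or 4 or non-affected 1, 3 or 4. COL2A1, the main collagen of cartilage, ran from 11.82 through 12.14 to 12.59 in the non-affected and from 10.51 through 11.45 to 12.44 in the affected samples (-0.62 ± 0.28), with its other probe set at -0.06. Affected 1, 2, 4 and 5/6 lay below the non-affected range of COL2A1 and the other 3 affected samples lay within it. CILP, a matrix protein of the middle zone of cartilage, lay at 12.29, 12.70 and 13.72 against 8.96, 12.14 and 12.65 (-1.18 ± 0.49, adjusted p = 0.754), where affected 2 at 8.96 was far below the rest, and its other probe set gave -0.10. PRELP differed by -0.36 ± 0.17. The aggrecan gene ACAN differed by -0.13, COMP by -0.16, the link protein gene HAPLN1 by -0.10 and the chondrocyte regulator SOX9 by -0.31. Each of the last 4 had a p above 0.05. The other probe sets of ACAN and COMP gave 0.14 and 0.24, so for these genes the sign depends on the probe set. That of HAPLN1 gave -0.05.

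Lists for proteoglycan and collagen processing and for secretion also had most members lower. Whether these belong together was not tested. Of 10 genes for proteoglycan sulphation and glycosaminoglycan synthesis 9 lay lower, with a median of -0.26, and PAPSS1, which makes the sulphate donor PAPS, was the member with a p under 0.05. It lay at 11.59, 12.01 and 12.32 in the non-affected samples and reached down to 10.67 with a median of 11.57 in the affected ones (-0.60 ± 0.20), with another probe set at -0.62. There were 4 such members without affected 8, 3 without affected 7, and 2 without affected 1, affected 3, non-affected 2, non-affected 4 or non-affected 6. The chaperones and sensors of the endoplasmic reticulum lay lower in 21 of 25 members. Their median of -0.14 became -0.205 without non-affected 1 and -0.115 without non-affected 5. ATF4, a transcription factor of the stress response, differed by -0.37, DNAJB11 by -0.47, HYOU1 by -0.45, MANF by -0.38 and DERL1 by -0.27. These 5 were the members with a p under 0.05, and the number ranged from 2 without affected 4 or non-affected 5 to 7 without affected 3. Of 40 genes for vesicle coats and cargo receptors 30 lay lower with a median of -0.08, among them SEC23B of the COPII coat at -0.40 and TMED7 at -0.27. At a p under 0.05 on the low side were 3 of them. That number ranged from 0 without affected 4, non-affected 4 or non-affected 5 to 4 without affected 8 or non-affected 2. Collagen folding genes lay lower in 9 of 13, with a median of -0.20 that became -0.09 without affected 2.

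Growth factor genes gave single members with small p-values. TGFB1, the transforming growth factor that holds chondrocytes short of enlargement, lay at 8.58, 9.05 and 9.74 in the non-affected and 7.68, 8.30 and 9.07 in the affected samples (-0.74 ± 0.23), with another probe set at -0.70. TGFB3 differed by -0.39 and INHBA by -0.20. The list of TGF-beta and BMP signalling had 15 of 25 members lower and a median of -0.18, which became -0.10 without non-affected 5. FGF18, a growth factor of cartilage and growth plate, lay at 6.15, 7.36 and 8.62 against 5.91, 6.52 and 7.12 (-0.90 ± 0.32). Non-affected 5 was highest and non-affected 2 lowest of the non-affected group. In the hedgehog, PTHrP and FGF list 11 of 13 members lay lower, with a median of -0.21. PTHLH, the gene of PTHrP, which delays hypertrophy, differed by -0.51 and the hedgehog target GLI1 by -0.43, each with a p above 0.05.

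Genes of hypertrophic chondrocytes gave no stable direction. Their median of 0.33 over 11 members became -0.11 without non-affected 5, whose COL10A1, the collagen of hypertrophic cartilage, was at the floor at 4.01 while the other non-affected samples lay between 10.21 and 13.35. In the affected group affected 7 was low in COL10A1, at 5.38. ENPP1, which makes the mineralisation inhibitor pyrophosphate, was the member with a p under 0.05 (-0.65 ± 0.23).

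Bone and marrow genes lay higher in affected samples on average, with a spread inside each group that was as wide as the difference. Neutrophil genes had the largest median of the 43 lists, 1.76, with 8 of 10 higher and 0 at a p under 0.05. NPG4, a porcine antimicrobial peptide, differed by 2.88 ± 1.36, S100A9, a calcium-binding protein of granulocytes, by 2.37, ELANE, neutrophil elastase, by 1.98 and S100A8 by 1.71. The list mean was 10.70 in non-affected 2 and between 5.38 and 7.0 in the other non-affected samples, and it lay between 7.78 and 10.38 in affected 1, 3, 4, 5/6 and 8 and at 6.07 and 5.78 in affected 2 and 7. The median ran from 1.36 without affected 5/6 to 2.68 without non-affected 2. Without non-affected 2, 8 of 10 members had a p under 0.05. There were 4 without affected 7, 2 without affected 2, 1 without non-affected 1 and 0 with any other single sample left out.

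Osteoclast genes followed the same samples. Of 10 members 9 lay higher, with a median of 0.76 that ran from 0.53 without affected 1 to 1.11 without non-affected 2. With all samples 0 members had a p under 0.05. There were 8 without non-affected 2, 6 without affected 7, 1 without affected 2 and 0 with any other single sample left out. ACP5, tartrate-resistant acid phosphatase, ran from 6.5 through 10.93 to 13.70 in the non-affected and from 9.51 through 12.37 to 13.80 in the affected samples (1.74 ± 0.94). ITGB3, an integrin subunit by which osteoclasts hold on to bone, differed by 1.51, the proton pump subunit ATP6V0D2 by 1.49, the calcitonin receptor CALCR by 1.26 and the protease CTSK by 0.61. Of the bone matrix list 7 of 9 lay higher, with a median of 0.08 that became 0.04 without non-affected 5 and 0.46 without affected 7. BGLAP, osteocalcin, spanned 5.25 to 12.30 and 4.82 to 12.61, so the groups covered the same range. SP7, the osteoblast transcription factor, had 7.49, 7.55 and 8.03 against 7.66, 7.88 and 8.73 (0.40 ± 0.16), but its other probe set gave 0.01.

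Vessel and macrophage genes lay higher in most members. Of 23 endothelial and vessel wall genes 19 lay higher, with a median of 0.31. CDH5, the cadherin of endothelial junctions, ran from 6.41 through 8.65 to 9.17 in the non-affected and from 8.21 through 9.19 to 9.65 in the affected samples (1.02 ± 0.45). Non-affected 1 and non-affected 5 lay at 6.51 and 6.41, well below every other sample, and the remaining non-affected samples lay inside the affected range. TEK, the angiopoietin receptor, differed by 1.02, VWF by 1.15 and PECAM1 by 0.90, each with a p above 0.05. CDH5 was the member with a p under 0.05; there were 7 without non-affected 2, 6 without affected 8, 5 without non-affected 4, 4 without non-affected 3, 3 without non-affected 6 and 2 without affected 7, against 0 without non-affected 5 or affected 1, 2 or 4. The macrophage list had 19 of 21 members higher and a median of 0.69, which became 0.26 without non-affected 5. On the high side 0 members had a p under 0.05, against 5 without non-affected 2 and 3 without affected 7. Over all probe sets the count in either direction rose from 1558 to 2414 and 2050 in these settings. Skeletal muscle genes had 20 of 23 members higher and a median of 0.28, which became -0.03 without affected 8.

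**Figure D4:**
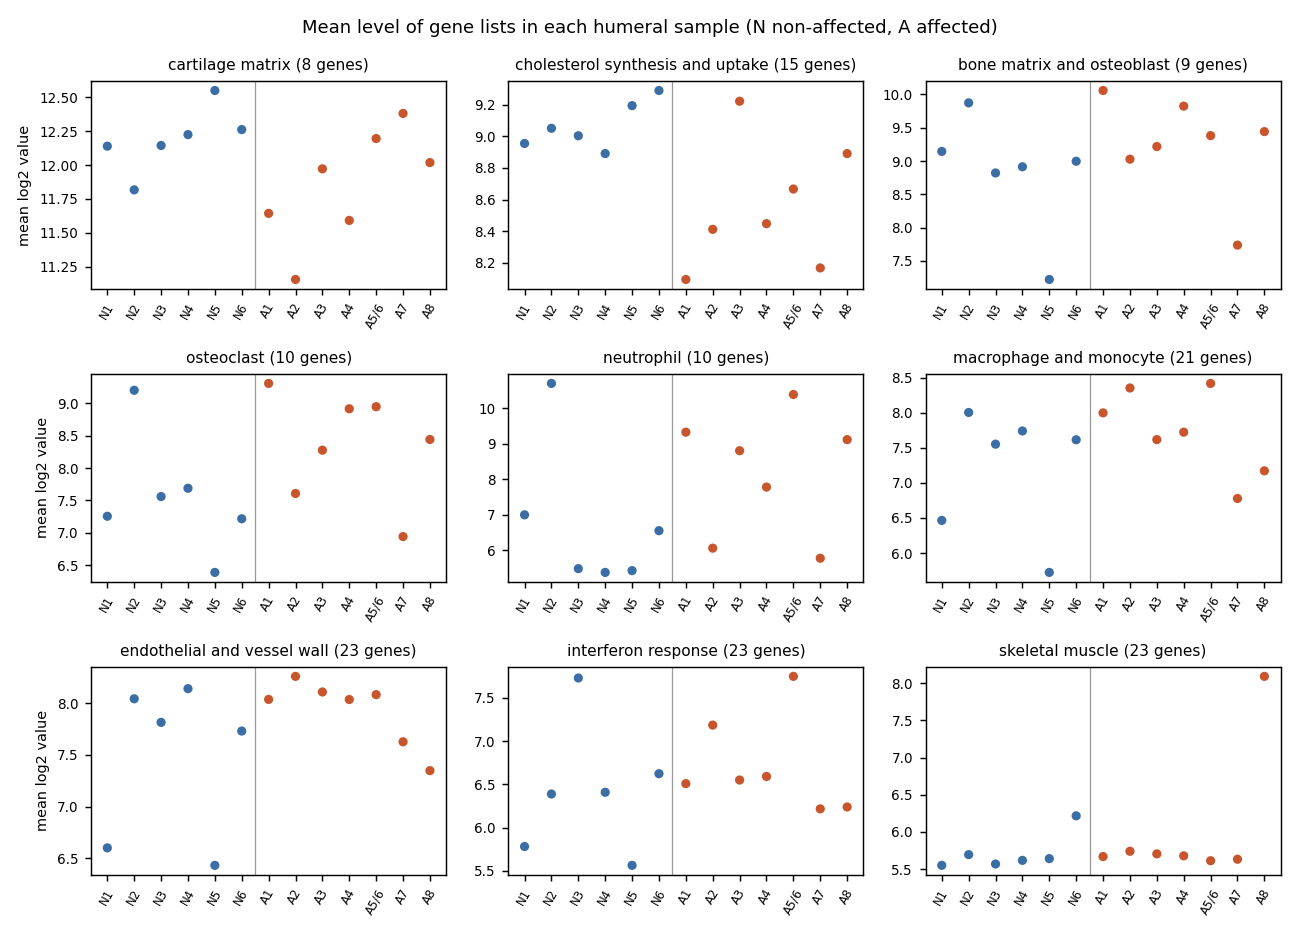
Mean log2 value of 9 gene lists in each humeral sample (blue N, non-affected; orange A, affected); each panel has its own axis, which does not start at 0. The osteoclast list is high in N2 and low in N5 and A7, muscle is highest in A8 and, among the non-affected samples, in N6, and the cholesterol list is lowest in A1 and A7.

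Immune response genes leaned higher with few small p-values. The interferon list had 20 of 23 members higher and a median of 0.22, which became 0.11 without non-affected 5 and 0.37 without affected 7. MX2, an antiviral GTPase, was its member with a p under 0.05: the brighter probe set lay at 5.91, 6.03 and 6.38 against 6.12, 6.36 and 6.83 (0.39 ± 0.12) and the other differed by 0.55 ± 0.15. The interferon list had 6 such members without non-affected 3 and 2 without affected 3 or affected 5/6. MX1 reached 9.86 in non-affected 3 and 10.02 in affected 5/6, which were also the samples with the highest interferon list mean of their groups. Antigen presentation genes lay higher in 17 of 23, with a median of 0.27 that became 0.10 without non-affected 5. Complement and coagulation genes lay higher in 20 of 29, with a median of 0.27 that became 0.11 without the same sample. Cytokine and chemokine genes lay higher in 30 of 41, with a median of 0.14 that became 0.05 without non-affected 1 and 0.21 without non-affected 4.

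Matrix proteases lay higher in 17 of 20 members, with a median of 0.33 that became 0.20 without non-affected 5. MMP3, stromelysin, differed by 1.21 ± 0.60 and CTSD, a lysosomal protease, by 0.82 ± 0.37. CTSD was the member with a p under 0.05 on the high side. There were 5 without affected 7, 4 without non-affected 2 and 3 without non-affected 4, against 0 without affected 1 or affected 5/6. Over all probe sets, in either direction, there were 2050 without affected 7, 2414 without non-affected 2 and 1484 without non-affected 4. Among the matrix proteases, the cathepsins such as CTSK and CTSS, and MMP9, are also genes of macrophages and osteoclasts. HTRA1, a serine protease of cartilage, lay on the other side at -0.36 ± 0.15. Of their inhibitors, TIMP3, which is bound to the matrix, differed by 0.52 ± 0.20.

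The list of hypoxia genes did not follow ANGPTL4, which belongs to it. Of 24 members 20 lay lower and 4 higher, with a median of -0.18 that became -0.07 without non-affected 5 and -0.30 without non-affected 2. SLC2A1, the glucose transporter GLUT1, differed by -0.68 ± 0.30, and VEGFA, the vessel growth factor, by -0.67 with a p above 0.05. VEGFA was highest in non-affected 5, at 13.31. Glycolysis genes lay lower in 11 of 19 and higher in 8, with 3 at a p under 0.05: PFKP at -0.49, HK1 at -0.31 and LDHA at -0.40. Without affected 4 or non-affected 5 there were 0 on the low side, without affected 1, affected 2 or non-affected 4 there was 1, and without non-affected 3 there were 5.

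In the list of water, sodium and glucose transport, SLC5A1 and the sodium-proton exchanger SLC9A5 (0.34 ± 0.10) lay higher, and the exchanger SLC9A3 (-0.61 ± 0.22), the nucleoside carrier SLC29A1 and SLC2A1 lay lower. The genes of the mitochondrial respiratory chain lay higher in 51 of 58 members by small amounts, with a median of 0.15 and a range of -0.21 to 0.30. NDUFA4 at 0.29, 1 of the 58, was the member with a p under 0.05, against 2.47% of all genes on the high side. On the high side 7 members had one without non-affected 2, 5 without affected 7, 3 without affected 3 or non-affected 1, and 2 without affected 5/6, affected 8 or non-affected 4, against 0 without affected 2, affected 4 or non-affected 5. Over all probe sets the count in either direction also rose, from 1558 to 2414 without non-affected 2 and 2050 without affected 7. Cytosolic ribosomal protein genes stayed close to 0, with a median of 0.02, and those of the proteasome with 0.01. Cell cycle genes were split evenly, 16 higher and 16 lower, with CDK2AP1 at -0.45 ± 0.12 and CDC45, a replication factor, at -0.39. The other CDC45 probe set gave 0.03.

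**Figure D5:**
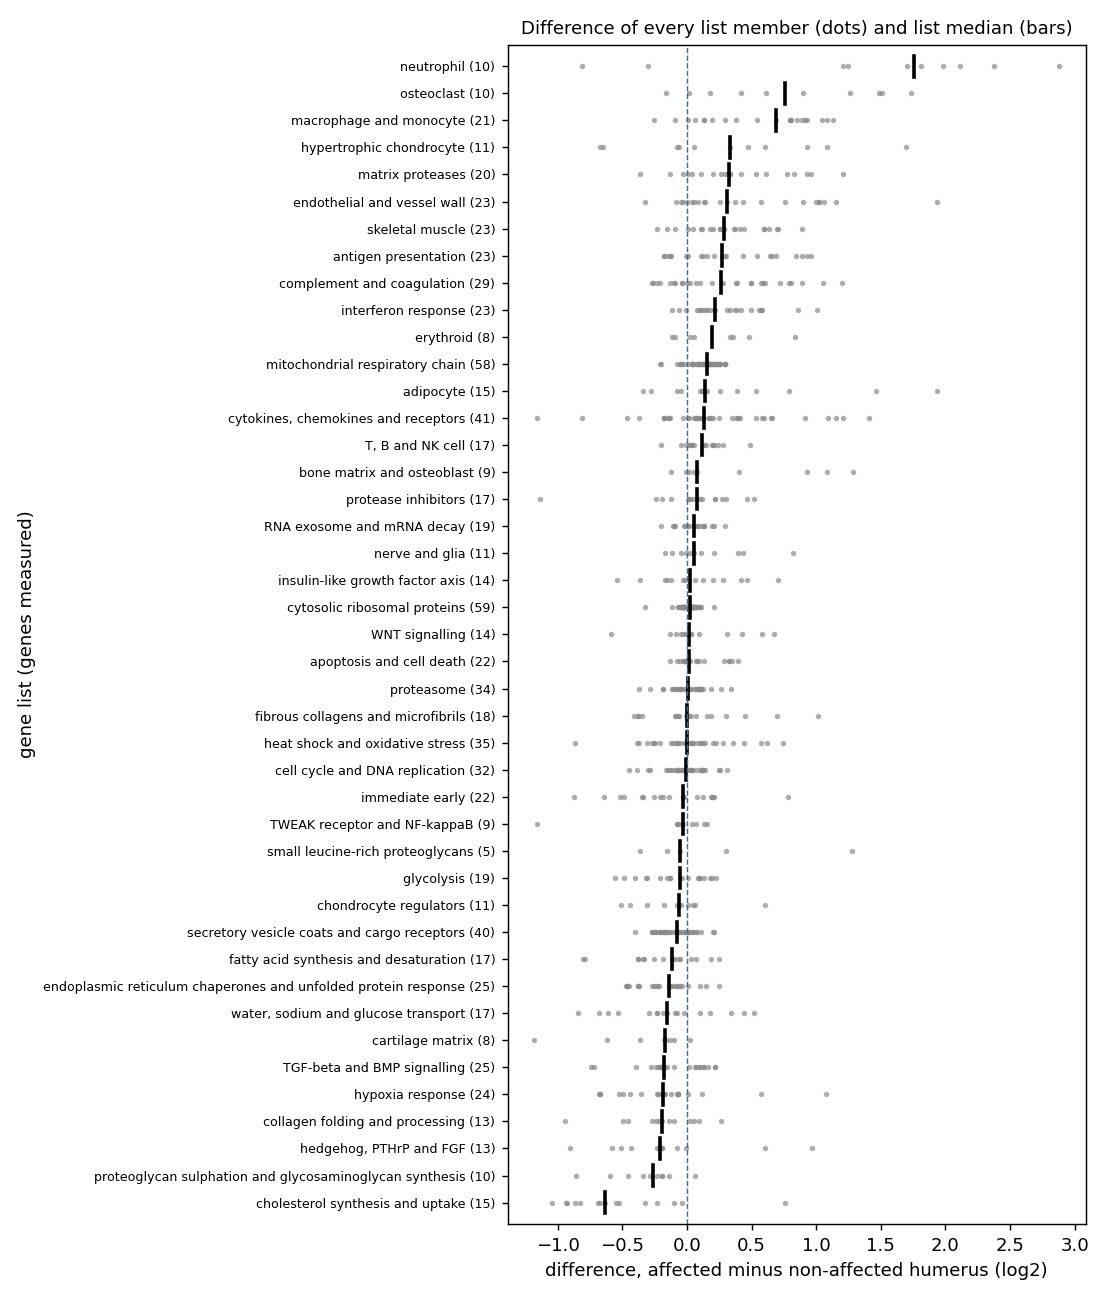
Difference between affected and non-affected humeral cartilage (x axis, log2) of every measured member (dots) of 43 gene lists (rows, with the number of genes measured), and the list median (black bars); the dashed line is the median over 6765 genes. Cholesterol genes have the lowest median, at -0.64, and neutrophil genes the highest, at 1.76, with the widest spread of members.

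The femoral differences are set beside the humeral ones as a description. Of the 30 genes with the smallest p in the humerus, 15 in each direction, 12 had the same sign in the femur, 6 of each direction. Over all probe sets the same sign held for 10652 of 23999 (44.4%), so these genes lay near the share of all probe sets. ANGPTL4 differed by 1.40 in the femur and 1.07 in the humerus, TMED10 by -0.40 and -0.44, and the dimmer EXOSC7 probe set by -0.52 and -0.55. TNFRSF12A differed by 0.41 in the femur and -1.14 in the humerus, LRP8 by 0.64 and -1.21, HMGCS1 by 0.35 and -1.04, and MYLIP by -0.73 and 0.65. LRP8 and HMGCS1 were named by size and are not among the 30. The examples given here were chosen after their values were seen. The labels do not say whether the femoral and humeral samples share animals, and the difference between the joints was not tested here.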

How the data were processed

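Messenger RNA was measured on 14 humeral arrays. The authors' deposited table gives log2 values, 1 per probe set and array. GCOS 1.1.1 is named per the submitters' processing notes, and the sources used here give no normalisation step. Values were used as deposited. Humeral affected 5 and 6 differed by an SD of 0.108 over probe sets (r = 0.998; next closest humeral pair 0.341) and were averaged. limma 3.58.1 in R 4.3.3 (lmFit, eBayes) compared 7 affected with 6 non-affected samples over 23999 probe sets, controls left out, without a filter on low values; p-values were adjusted by Benjamini-Hochberg with calls at an adjusted p under 0.05. The steps were tested on simulated data. The number of arrays limits the precision.

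Symbols came from the platform annotation. In a list a gene stands by its brightest probe set. Genes named were drawn from the 15 smallest p per direction and the 8 largest differences per direction with p under 0.05 and no sample at the floor. The 4 smallest p of each list, non-overlapping list members and cell type markers were further sources. Not every gene that met these rules is named. Others were chosen after their values were seen. Members, lists and rules were chosen with earlier results of these data known. Alternatives covered filters, scaling, the averaged pair, array weights, variance model, the samples in the fit and each sample left out. Tables used Python 3.11.15.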

Additional observations from a re-analysis of the deposited data

Results flagged for a closer look

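Within each group of 6 or 7 samples, a highest or lowest sample was noted where its gap to the next sample was large beside the range of the group (Dixon's 95% bound). Of 172 groups examined, 18 had such a sample. For a single group chance gives about 1 in 20. The 172 groups share the same samples and include genes picked by p or size in them. The 18 therefore cannot be judged against that share.

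Several of these lie in the samples with unusual marrow or muscle levels. In the neutrophil list non-affected 2 had a mean of 10.7, with the next sample of its group at 7.0, and in PRTN3 it had 17.5, with the next at 7.11. Non-affected 2 also stood apart in the secretory vesicle list, at 9.9 against 10.07 for the next sample, in CD151, the tetraspanin, at 11.16 against 11.27, and in the transporter ABCC6 at 4.40 against 4.15. Non-affected 5 had the lowest hypertrophic chondrocyte list mean, 8.09 against 9.97 for the next sample, and the lowest mean of protease inhibitors, 8.31 against 8.63. It had the highest mean of endoplasmic reticulum genes, 10.34 against 10.12, and the lowest value of the laminin gene LAMC1, 5.87 against 6.29. In the skeletal muscle list affected 8 had 8.09, with the next affected sample at 5.74, and non-affected 6 had 6.22, with the next non-affected sample at 5.70. Affected 8 was also lowest in the insulin-like growth factor list, 7.42 against 7.62.

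Of the other samples, non-affected 3 was highest in the proteasome list, at 9.98 against 9.77, and in TTC39C, at 6.53 against 6.13. Affected 2 was highest in SLC5A1, at 7.23 against 6.73, and lowest in CILP, at 8.96 against 11.25, and in SLAIN1, at 4.23 against 4.53. Affected 7 was highest in SRSF11, a splicing factor gene, at 4.83 against 4.46. Between the groups SRSF11 differed by -0.475 ± 0.10, while its other probe sets gave 0.02, -0.00, 0.07 and -0.11.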

How the results depend on the processing

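No probe set was called in the design as fitted or in any of 25 alternatives, and the smallest adjusted p ranged from 0.304 to 0.984. The 1558 probe sets at an unadjusted p under 0.05 became 415 of 6765 with 1 probe set per gene, where fewer features were tested than the 23999 before, and 1016 to 2414 when single samples were left out. The 14 non-overlapping probe sets on the high side became 5 with median centring, 9 with quantile normalisation, 3 with 1 probe set per gene, 17 to 47 with single samples left out (31 without affected 5/6), and 197 with non-affected 2, non-affected 5 and affected 8 left out together, an alternative chosen after seeing the data. The 28 on the low side became 13, 32 to 68 and 223 in the last 3 of these settings; fewer samples make separation easier by construction. The 43 genes that met the rules by p or size were picked in these same samples, so a change of sign was unlikely from the start. None of their differences changed sign. List medians near 0 did: those of fibrous collagens, the proteasome, the cell cycle, cell death, WNT, insulin-like growth factors, NF-kappaB and heat shock genes, beside the hypertrophic and muscle lists. No paired analysis was possible because the labels do not say which samples are sibs and give no shared replicate numbers. Genes near the floor, such as ABCC6 and TTL, have differences that the floor can shorten.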

Other observations

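Some other gene groups held members with an unadjusted p under 0.05 (limma, none with an adjusted p under 0.753) that the comparison above did not name. Among fibrous collagens, which were split evenly with 9 of 18 higher, COL5A1 differed by -0.41, COL6A2 by -0.35 and COL6A3, which with COL6A2 forms the beaded filaments around chondrocytes, by -0.38. In the insulin-like growth factor list IGFBP5, a binding protein held in the matrix, differed by -0.54. Among immediate early genes GADD45A, a gene induced by DNA damage, differed by 0.78 and KLF4, a transcription factor, by -0.64. TNFAIP8, which acts in the control of apoptosis, had a difference of 0.40, but its other probe set gave -0.27, so the sign depends on the probe set. In the nerve and glia list, with 7 of 11 members higher, 4 lower and a median of 0.06, the myelin gene MBP differed by 0.82 and the synaptic gene SYT1 by 0.40, beside MAG at 0.44, while the glial marker SOX10 had -0.17. These 3 members with a p under 0.05 became 1 without non-affected 3. The small leucine-rich proteoglycan LUM, lumican, had a difference of 1.28 with a p above 0.05, while DCN, decorin, had -0.05.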
